A study of Mus musculus with 12 samples.

Results

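The 9 genes described here belong to the GABAergic interneuron programme and were followed across the 3 growth conditions of an adult mouse neural stem cell (NSC) series. They are the homeobox genes Dlx1, Dlx2, Dlx5 and Dlx6, the antisense RNA Dlx6os1, the zinc-finger genes Sp8 and Sp9, and Gad1 and Gad2. They were taken by symbol, 9 of the 17365 genes in the count table. Several of them were chosen by their measured fall from BMP to BMP/FGF, among the largest of all genes, so that difference is given as a description, without a test. A filter on low counts kept 13312 genes for testing and, with them, 8 of the 9. Dlx6 did not pass. Dlx5 and Dlx6os1 were at or near 0 in EGF/FGF and passed on their BMP and BMP/FGF libraries, so a difference from EGF/FGF was built into their passing.

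RNA was sequenced from 12 libraries of NSCs isolated from the subventricular zone of wild-type mice aged 6 to 8 weeks, used at low passage and plated at low density. One line, ANS4, came from the MF1 strain and the other, BL6, from C57BL/6, so strain, line and culture history cannot be told apart. Each line was grown for 3 days with EGF and FGF2 (EGF/FGF, proliferating), with BMP4 alone (BMP, named dormant quiescent NSCs or d-qNSCs by the study) or with BMP4 and FGF2 (BMP/FGF, primed quiescent NSCs or p-qNSCs), every factor at 10 ng/ml, with 2 biological replicates per line and condition. No label says whether replicates of a line came from separate animals, so p-values measure the spread between these libraries. Library totals lay between 18069052 and 19451818 estimated counts. The 11 neural stem cell markers examined, Sox2, Nes and Gfap among them, were all in the table, and their summed level in CPM (counts scaled to the library total) lay between 8239 and 8959 in EGF/FGF libraries, 10584 and 11687 in BMP libraries and 13537 and 14005 in BMP/FGF libraries.

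The Dlx genes encode homeodomain transcription factors that specify GABAergic neurons in the ventral forebrain and, after birth, in the subventricular zone, whose neuroblasts migrate to the olfactory bulb and become interneurons. They lie in pairs transcribed towards each other that share enhancers. Dlx6os1 (also called Evf2) is a long non-coding RNA of the Dlx5 and Dlx6 locus, transcribed from the strand opposite to Dlx6. Sp8 and Sp9 are transcription factors of the same lineage, and Gad1 and Gad2 encode GAD67 and GAD65, the enzymes that make GABA from glutamate.

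In GENCODE vM21 on GRCm38, Gad1 (chr2:70553072-70602014, plus strand), Dlx1 (chr2:71528113-71533981, plus), Dlx2 (chr2:71543408-71546754, minus) and Sp9 (chr2:73271925-73284706, plus) lay on the same chromosome, with 9426 bases between Dlx1 and Dlx2. Gad2 (chr2:22622205-22693874, plus) was far from them. Dlx6 (chr6:6863334-6868568, plus) lay inside the span of Dlx6os1 (chr6:6820189-6871592, minus) without a shared exon base, and Dlx5 (chr6:6877805-6882085, minus) followed after a gap of 6212 bases. Sp8 (chr12:118846329-118852576, plus) stood alone. Some could share reads with an antisense neighbour. Dlx6 had 104 exon bases in common with Dlx6os2, Dlx1 had 335 with Dlx1as, Sp9 had 270 with Cir1, and whether the counting used strand is not given in the sources used here. Dlx5 shared no 31-base stretch with any other gene, whereas 7.64% of those of Dlx6 were also found elsewhere, the highest share of the 9.

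Promoter windows from RefSeq (GRCm38.p6), from 250 bases before to 50 after a transcript start, were held for 7 of the 9 genes, 10 windows in all. Dlx5 and Dlx6 had none. TAATTA, the core that homeodomain proteins such as the DLX factors can bind and the same on both strands, occurred in 3 of these 10 windows and in 5.29% of all 32851 windows. The 30 bases around each of its 4 occurrences are shown because these are the places where the letters of a homeodomain core stand before a start of a member, in capitals within each line, and each reads 5′ to 3′ on the strand of the gene.
Dlx6os1, chr6:6869646-6869675, minus strand, in an exon of a longer Dlx6os1 transcript: gaaaattacaggTAATTAtctttgacggta
Dlx6os1, chr6:6869590-6869619, minus strand, in an exon of a longer Dlx6os1 transcript: gaaaaattactcTAATTAtggctgcattta
Dlx6os1, chr6:6861840-6861869, minus strand, in an intron of Dlx6os1, before another start: taaattatcctcTAATTAtacaccagtgtc
Sp8, chr12:118847359-118847388, plus strand, in an intron of Sp8, before a start downstream of its others: ctcttgctggttTAATTAgtttccttttat
The E-box CAGCTG occurred in 1 member window, that of Dlx6os1, and in 16.3% of all windows. On either strand, GGGCGG, the core bound by zinc-finger factors of the SP family, occurred in 5 member windows and in 35.7% of all, and GGCGCC in 2 and in 11.9%. These are matches of letters in a window and carry no measurement of binding.

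From EGF/FGF to BMP, 7 of the 8 tested genes rose and Gad2 fell slightly, at an adjusted p under 0.05 in edgeR's quasi-likelihood test over all tested genes, where 79.6% of all tested genes were called in either direction, 40.8% higher and 38.8% lower. Their median log2 difference was 3.60, against 0.02 over all tested genes. In BMP/FGF, 6 were higher than in EGF/FGF and 2, Sp8 and Gad2, were lower, with a median of 2.23 against 0.02. There 78.9% of all tested genes were called, 40.9% higher and 38% lower. Both comparisons use the same EGF/FGF libraries, and each shares its other libraries with the difference that chose the genes. The counts and medians include Dlx5 and Dlx6os1, whose difference from EGF/FGF was built into their passing the filter. Apart from them, Dlx1, Dlx2, Sp8, Sp9 and Gad1 were higher in BMP, and Dlx1, Dlx2, Sp9 and Gad1 in BMP/FGF. In whole cultures, fewer cells of a type and less RNA per cell cannot be told apart.

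**Figure D1:**
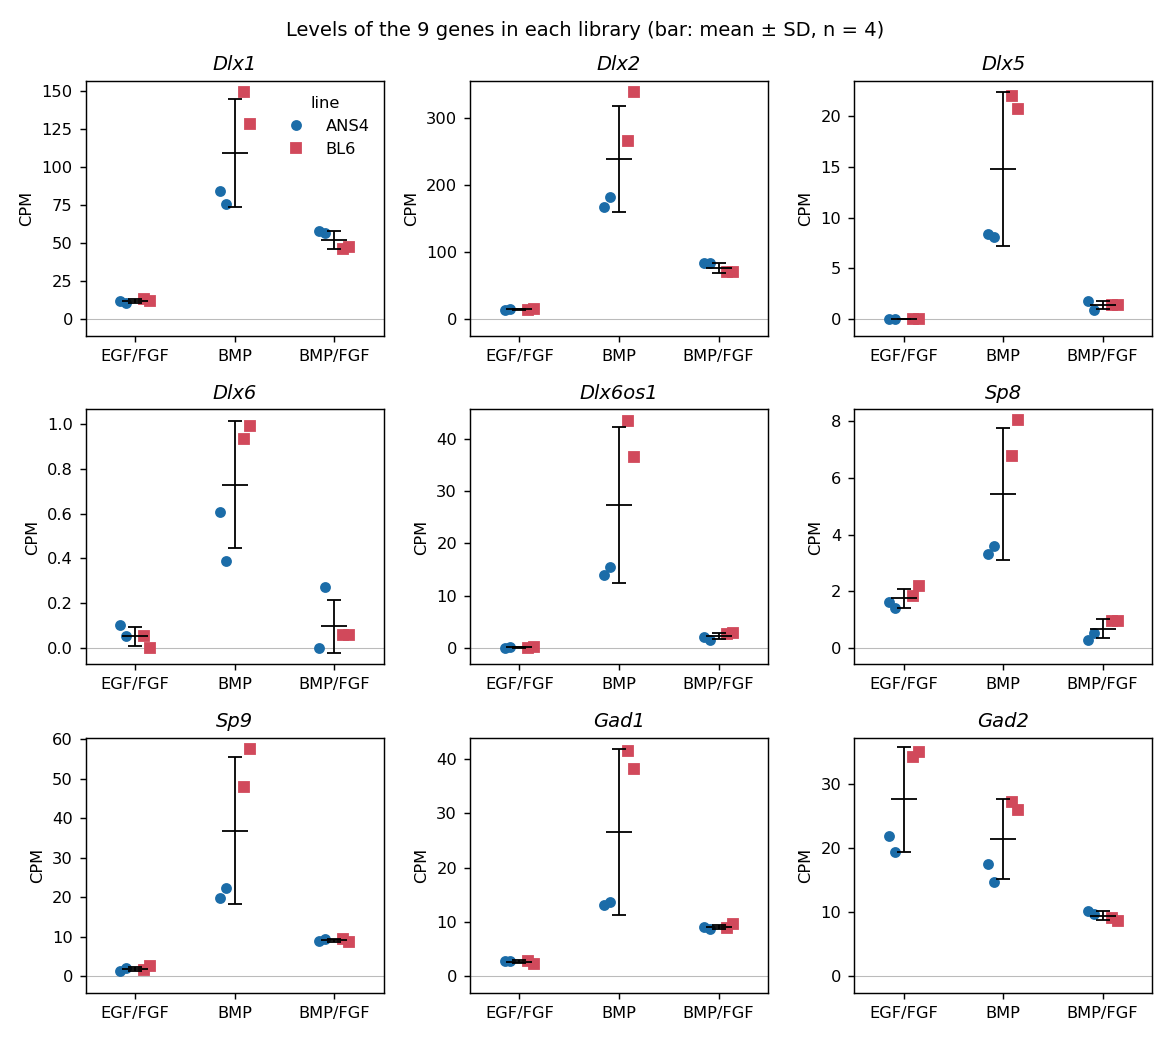
Level of each gene in CPM (vertical axis, linear, a separate scale per panel) in the 12 libraries by condition, with ANS4 libraries as circles and BL6 libraries as squares. The horizontal tick and bar are the mean and SD of 4 libraries. In BMP the BL6 squares lie above the ANS4 circles for all 9 genes, and Gad2 is the one gene whose highest values are in EGF/FGF.

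Dlx2, one of the first Dlx genes expressed in the lineage, had the highest level per transcript length of the 9 genes in each condition as a mean over both lines. In EGF/FGF it stood at 14.3 and 15.6 CPM in the ANS4 libraries and 14.1 and 15.0 in the BL6 libraries. In BMP it stood at 167 and 183 CPM in ANS4 and 265 and 339 in BL6, and in BMP/FGF at 83.1 and 83.7 CPM in ANS4 and 70.4 and 70.0 in BL6. The 3 conditions did not overlap. Against EGF/FGF it was 3.99 higher on the log2 scale in BMP (SE 0.17, adjusted p = 4.6e-13) and 2.39 higher in BMP/FGF (SE 0.17, adjusted p = 4.2e-10).

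Dlx1, its partner at the same locus, followed the same order at a lower level. Its values were 11.9 and 10.5 CPM in ANS4 and 13.3 and 12.3 in BL6 under EGF/FGF, 84.3 and 75.6 in ANS4 and 149.7 and 129 in BL6 under BMP, and 57.8 and 56.7 in ANS4 and 46.1 and 47.5 in BL6 under BMP/FGF. No library of one condition reached those of another. The log2 difference from EGF/FGF was 3.17 in BMP (SE 0.17, adjusted p = 6.6e-12) and 2.13 in BMP/FGF (SE 0.17, adjusted p = 1.7e-09).

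Dlx5, which acts after Dlx1 and Dlx2 in differentiating GABAergic cells, was all but silent in proliferating cultures, with 0 counts in 3 EGF/FGF libraries and 1 count in BL6 replicate 2. In BMP it had 152 and 147 counts in ANS4 and 423 and 396 in BL6, or 8.39, 8.14, 21.9 and 20.6 CPM. In BMP/FGF it had 34 and 17 counts in ANS4 and 25 and 26 in BL6, or 1.83, 0.92, 1.40 and 1.45 CPM. All BMP libraries thus lay above all BMP/FGF libraries, which lay above all EGF/FGF libraries. Since EGF/FGF held 1 count in all, the ratio of summed counts scaled by library size is given with its exact 95% counting interval, which covers counting error only: 1157 in BMP (207 to 45732) and 108 in BMP/FGF (19.0 to 4309).

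Dlx6os1 had 0 and 3 counts in the ANS4 and 0 and 4 in the BL6 libraries in EGF/FGF. In BMP it reached 13.9 and 15.4 CPM in ANS4 and 43.4 and 36.4 in BL6, and in BMP/FGF 2.05 and 1.51 CPM in ANS4 and 2.57 and 2.90 in BL6. As for Dlx5, the 3 conditions were separate. Its ratio to EGF/FGF was 305 in BMP (148 to 761) and 24.8 in BMP/FGF (11.8 to 62.7).

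Dlx6, within the span of Dlx6os1, stayed near the limit of detection. It had 2 and 1 counts in ANS4 and 1 and 0 in BL6 under EGF/FGF, 11 and 7 in ANS4 and 18 and 19 in BL6 under BMP, and 0 and 5 in ANS4 and 1 and 1 in BL6 under BMP/FGF. Its BMP libraries lay above all others, whereas BMP/FGF and EGF/FGF overlapped. The BMP ratio to EGF/FGF was 14.2 (5.25 to 54.1). A two-sided exact permutation test of the 4 BMP against the 4 EGF/FGF libraries gave p = 0.029, the smallest that the 70 divisions allow. For BMP/FGF the ratio was 1.85 (0.47 to 8.64) and the exact permutation p = 0.57, so a difference was not detectable at this depth. Of the 7 BMP/FGF counts 5 came from ANS4 replicate 2, and the fitted log2 difference without a filter, 0.81 (adjusted p = 0.49), was -0.55 without that library (adjusted p = 0.67). The other Dlx genes in the table, Dlx3 and Dlx4, had at most 2 and 12 counts in any library and were not tested.

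Sp9, required for olfactory bulb interneurons together with Sp8, behaved like Dlx1 and Dlx2. It stood at 1.45 and 2.02 CPM in ANS4 and 1.51 and 2.48 in BL6 under EGF/FGF, at 19.8 and 22.4 in ANS4 and 47.7 and 57.5 in BL6 under BMP, and at 9.00 and 9.38 in ANS4 and 9.50 and 8.60 in BL6 under BMP/FGF. The conditions were separate, with a narrow band of values in BMP/FGF. Against EGF/FGF the log2 difference was 4.23 in BMP (SE 0.25, adjusted p = 2.6e-11) and 2.32 in BMP/FGF (SE 0.27, adjusted p = 4.1e-07).

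Sp8 moved in opposite directions in the 2 quiescent conditions. Its EGF/FGF values were 1.60 and 1.40 CPM in ANS4 and 1.82 and 2.17 in BL6. In BMP they were 3.31 and 3.60 in ANS4 and 6.79 and 8.03 in BL6, and in BMP/FGF they were 0.27 and 0.54 in ANS4 and 0.95 in each BL6 library, or 5 to 17 counts. Every BMP library was above, and every BMP/FGF library below, every EGF/FGF library. On the log2 scale it rose by 1.59 in BMP (SE 0.18, adjusted p = 2.7e-07) and fell by 1.40 in BMP/FGF (SE 0.25, adjusted p = 5.6e-05).

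Gad1 rose in both quiescent conditions. It stood at 2.85 and 2.79 CPM in ANS4 and 2.81 and 2.27 in BL6 under EGF/FGF, at 13.2 and 13.7 in ANS4 and 41.5 and 38.2 in BL6 under BMP, and at 9.00 and 8.68 in ANS4 and 8.89 and 9.66 in BL6 under BMP/FGF. Conditions did not overlap, and within BMP the lines stood far apart. The log2 difference from EGF/FGF was 3.20 in BMP (SE 0.27, adjusted p = 3.5e-09) and 1.77 in BMP/FGF (SE 0.29, adjusted p = 1.9e-05).

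Gad2 went the other way and was highest in proliferating cultures. Among its libraries the values were 21.9 and 19.4 CPM in ANS4 and 34.3 and 35.1 in BL6 under EGF/FGF, 17.5 and 14.7 in ANS4 and 27.3 and 26.1 in BL6 under BMP, and 10.2 and 9.81 in ANS4 and 9.16 and 8.66 in BL6 under BMP/FGF. EGF/FGF and BMP overlapped across lines but not within a line, and all BMP/FGF libraries were below all the rest. The log2 difference from EGF/FGF was -0.37 in BMP (SE 0.14, adjusted p = 0.019) and -1.50 in BMP/FGF (SE 0.15, adjusted p = 3.6e-08). The BMP call was lost without the line term (adjusted p = 0.092), without BL6 EGF/FGF replicate 1 (0.055) or 2 (0.066), without ANS4 BMP replicate 2 (0.069), and on the deposited log2 values (0.50).

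**Figure D2:**
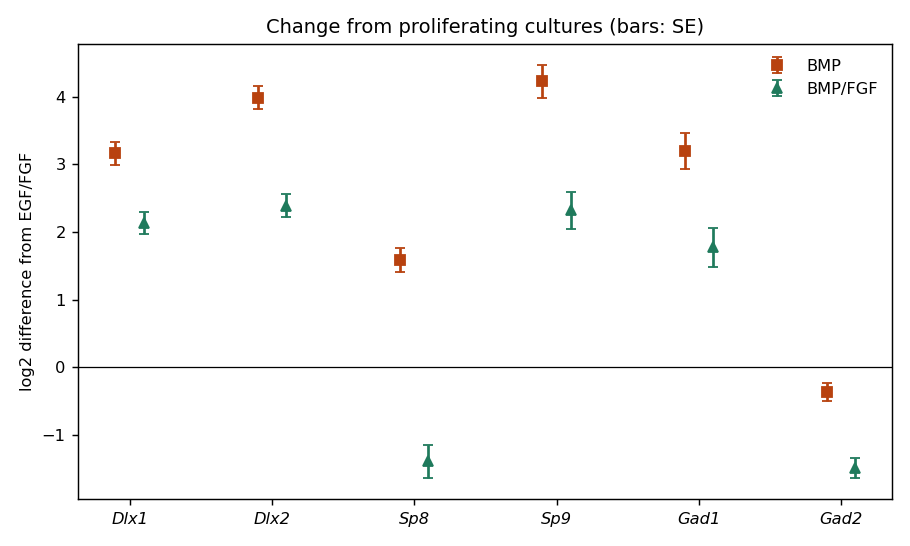
Log2 difference from EGF/FGF (vertical axis) in BMP (squares) and BMP/FGF (triangles), from all 12 libraries, with SE as bars. Dlx5 and Dlx6os1, at or near 0 counts in EGF/FGF, and the untested Dlx6 are not drawn. Sp8 lies above 0 in BMP (1.59) and below 0 in BMP/FGF (-1.40), and Gad2 is below 0 in both.

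Without any test, all 4 BMP libraries were above all 4 EGF/FGF libraries for 8 of the 9 genes, Gad2 being the exception, against 36.3% of all tested genes. All 4 BMP/FGF libraries were above all EGF/FGF libraries for 6 genes (39% of all tested genes) and below them for Sp8 and Gad2 (36.9%). The 8 and the 6 include Dlx5 and Dlx6os1, which passed the filter on their BMP and BMP/FGF libraries.

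The difference that chose the genes, BMP/FGF against BMP, is described by its values. All 9 genes had every BMP/FGF library below every BMP library, as did 18% of all tested genes, and 21.3% of all tested genes were lower at an adjusted p under 0.05. The mean in BMP/FGF was 8.28% of that in BMP for Dlx6os1, 9.47% for Dlx5, 12.5% for Sp8, 13.1% for Dlx6, 24.8% for Sp9, 32.2% for Dlx2, 34.0% for Gad1, 44.2% for Gad2 and 47.5% for Dlx1. In these means over both lines the genes of the Dlx5 and Dlx6 locus and Sp8 had the lowest remaining levels, and Dlx1 and Gad2 the highest, although in ANS4 Gad1 kept 65.8% and Gad2 62.1%. The fitted log2 differences of the 8 tested genes ran from -3.52 (Dlx6os1) to -1.03 (Dlx1). In ANS4 alone the percentages ran from 11.7 (Sp8) to 71.6 (Dlx1), and in BL6 alone from 5.81 (Dlx6) to 33.6 (Dlx1). All other genes than Sp8 kept a smaller part of their BMP level in BL6 than in ANS4, and Sp8 kept 12.8% and 11.7%. This difference between the lines was not tested.

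Divided by transcript length, levels in EGF/FGF were led by Dlx2 (5.97 ± 0.28 CPM per kb, SD, n = 4) and Gad2 (4.82 ± 1.43), whose ranges overlapped and of which Gad2 was the higher in BL6 (6.05 against 5.89), followed by Dlx1 (2.92 ± 0.28), Gad1 (0.74 ± 0.08), and Sp9 (0.41 ± 0.11) and Sp8 (0.39 ± 0.07), which also overlapped, and by Dlx5, Dlx6 and Dlx6os1 at or near 0. In BMP the order was Dlx2 (96.4 ± 32.1), Dlx1 (26.6 ± 8.62), Dlx5 (10.4 ± 5.30), Sp9 (8.16 ± 4.13), Gad1 (7.39 ± 4.25), Dlx6os1 (5.92 ± 3.24), Gad2 (3.72 ± 1.09), Sp8 (1.21 ± 0.52) and Dlx6 (0.33 ± 0.13). Over both lines together the ranges from Dlx5 to Dlx6os1 in that order overlapped, and so did those of Dlx6os1 and Gad2. Each line alone, with 2 libraries, gave the same order of means. From Dlx5 to Gad2, neighbours in that order then overlapped only for Sp9 and Gad1 in BL6 and for Dlx6os1 and Gad2 in ANS4. In BMP/FGF Dlx2 (31.1 ± 3.10) and Dlx1 (12.7 ± 1.48) stood clear of Gad1 (2.51 ± 0.12), Sp9 (2.02 ± 0.09) and Gad2 (1.65 ± 0.12), and the last 4 were Dlx5 (0.98 ± 0.26), Dlx6os1 (0.49 ± 0.13), Sp8 (0.15 ± 0.07) and Dlx6 (0.04 ± 0.05), of which Sp8 and Dlx6 overlapped. With at most 4 counts each, Dlx5, Dlx6 and Dlx6os1 could not be ranked among themselves in EGF/FGF. The longest annotated transcript set each length.

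The lines differed within BMP. All 8 tested genes were higher in BL6 than in ANS4 (12.3% of all tested genes were higher and 23% called in either direction), by log2 differences of 1.57 for Gad1 (SE 0.10, adjusted p = 4.7e-08), 1.45 for Dlx6os1 (SE 0.14), 1.36 for Dlx5 (SE 0.15), 1.32 for Sp9 (SE 0.12), 1.10 for Sp8 (SE 0.18), 0.80 for Dlx1 (SE 0.08), 0.79 for Dlx2 (SE 0.09) and 0.73 for Gad2 (SE 0.10). The largest adjusted p among them was 0.00042, for Sp8. Both BL6 libraries were above both ANS4 libraries for all 9 genes, as for 27.7% of all tested genes. In EGF/FGF this held for 3 genes, Dlx1, Sp8 and Gad2 (26.4% of all tested genes), and in BMP/FGF for Dlx6os1 and Sp8 (26.8%). The BMP libraries also entered the difference that chose the genes.

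In EGF/FGF Gad2 was the 1 gene of the 8 called between the lines, being higher in BL6 by 0.75 on the log2 scale (SE 0.10, adjusted p = 0.00017), where 6.75% of all tested genes were called. In BMP/FGF edgeR called none of the 8 (0.736% of all tested genes), with 4 at an unadjusted p under 0.05. There the differences were -0.29 for Dlx1 (SE 0.09, adjusted p = 0.14) and -0.25 for Dlx2 (SE 0.09, adjusted p = 0.25), where both BL6 libraries were below both ANS4 libraries, as for Gad2 also (24.3% of all tested genes). These 2 genes were called lower in BL6 when only the 4 BMP/FGF libraries were fitted, or without BL6 BMP replicate 1 or 2. More of all tested genes were called in each of these fits. With only the 4 BMP/FGF libraries, 1163 of 12650 tested genes were called.

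The rise from EGF/FGF to BMP itself was larger in BL6 than in ANS4 for 4 of the 8 genes, by a line by condition interaction (9.02% of all tested genes called, 5.39% with a larger value in BL6). Gad1 rose 15.7-fold in BL6 and 4.77-fold in ANS4 (interaction 1.72 on the log2 scale, SE 0.21, adjusted p = 8.6e-05), Dlx2 20.7-fold and 11.7-fold (0.83, SE 0.15, adjusted p = 0.0029), Sp9 26.4-fold and 12.2-fold (1.11, SE 0.31, adjusted p = 0.031) and Dlx1 10.9-fold and 7.14-fold (0.61, SE 0.14, adjusted p = 0.013). Gad2 fell to 0.768 of its EGF/FGF mean in BL6 and 0.778 in ANS4 (interaction -0.02, SE 0.14, adjusted p = 0.96). Sp8 rose 3.71-fold in BL6 and 2.30-fold in ANS4 without a call (interaction 0.69, SE 0.32, adjusted p = 0.20). Dlx5 (interaction -0.92, SE 1.17) and Dlx6os1 (1.06, SE 1.39) were not called either. Being at or near 0 in EGF/FGF, they leave the difference between their rises undetermined. The Sp9 call was lost without ANS4 EGF/FGF replicate 2 (adjusted p = 0.25), BL6 EGF/FGF replicate 1 (0.16) or ANS4 BMP replicate 1 (0.078), and the Dlx1 call without ANS4 EGF/FGF replicate 1 (0.089) or BL6 EGF/FGF replicate 2 (0.074).

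**Figure D3:**
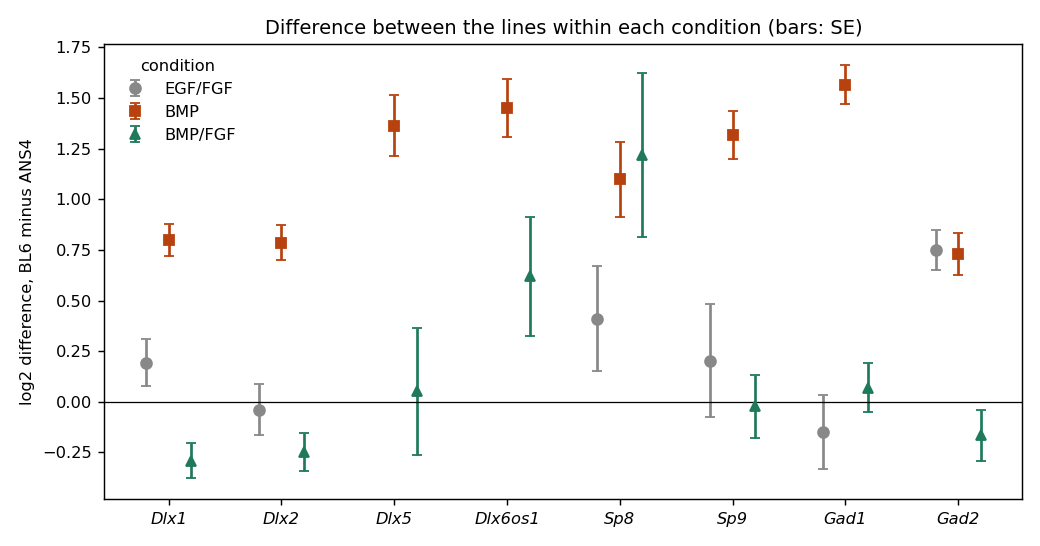
Log2 difference between the lines, BL6 minus ANS4 (vertical axis), for the 8 tested genes within EGF/FGF (circles), BMP (squares) and BMP/FGF (triangles), with SE as bars. Dlx5 and Dlx6os1 are not drawn for EGF/FGF, where they had at most 4 counts. All BMP squares lie between 0.73 and 1.57, while the BMP/FGF triangles of 6 genes lie within 0.3 of 0 and those of Sp8 and Dlx6os1 lie above it.

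Other markers moved with the line in BMP. The 28 neuroblast and young neuron markers summed to 6655 and 6724 CPM in the BL6 and 5151 and 5306 in the ANS4 BMP libraries, and 20 of the 26 tested were higher in BL6, with 1 lower. The 7 astrocyte markers in the table summed to 3947 and 3976 CPM in BL6 and 5537 and 5647 in ANS4, with 6 of 7 lower in BL6. In EGF/FGF these sums were 1652 and 1658 CPM in BL6 and 1932 and 2026 in ANS4, with 5 of 7 lower in BL6. The 10 oligodendrocyte lineage markers summed to 1589 and 1727 CPM in BL6 and 1196 and 1272 in ANS4, and 7 of 12 cell cycle genes were higher in BL6. Over all tested genes in BMP, 12.3% were higher in BL6 and 23% were called in either direction. In EGF/FGF the cell cycle genes summed to 3831 and 3860 CPM in BL6 and 3272 and 3297 in ANS4. There 3 of 12 were higher in BL6. The neuroblast sums in EGF/FGF were 3624 and 3795 CPM in BL6 and 3764 and 3816 in ANS4. The oligodendrocyte lineage sums were 1120 and 1181 against 1193 and 1277. None of these neuroblast, astrocyte or oligodendrocyte lineage markers was at 0 counts throughout the BMP libraries of a line. In BMP/FGF, where the 8 genes were not called, the neuroblast sums were 4333 and 4424 CPM in BL6 and 4480 and 4494 in ANS4. The part of these cells in the difference between the lines was not tested.

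Among 30 regulators of ventral forebrain and olfactory bulb interneurons in the table, 25 were tested. Under BMP 15 rose and 8 fell against EGF/FGF, with a median log2 difference of 0.28, and under BMP/FGF 11 rose and 9 fell. Over all tested genes 40.8% were higher and 38.8% lower in BMP, and 40.9% and 38% in BMP/FGF. The counts of this list in BMP/FGF are near those shares. The same shares apply to the lists that follow. Bcl11b, which marks striatal and olfactory bulb neurons, rose on the log2 scale by 2.51 in BMP and 1.18 in BMP/FGF. Gsx1, which patterns ventral progenitors, rose by 1.33 and 0.76 (log2, BMP before BMP/FGF here and in the pairs of log2 differences that follow). Meis2, a partner of the DLX proteins, rose by 0.49 and 0.16, and Pax6, needed for dopaminergic bulb interneurons, by 0.20 and 0.17. Gsx2, at 0.78, 0.53 and 0.31 CPM in EGF/FGF, BMP and BMP/FGF, had a log2 difference of -0.53 in BMP (adjusted p = 0.098) and fell by 1.28 in BMP/FGF (adjusted p = 0.0013). It would not have passed the filter without its EGF/FGF libraries, so a fall from EGF/FGF was favoured by its passing. Gsx2 is among the genes counted as falling in BMP/FGF. Zfhx3 fell by 1.48 and 1.59. Nkx2-1 and Lhx6, which define interneurons of the medial ganglionic eminence, had at most 2 counts and 1 count in any library.

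Genes of GABA transport and turnover moved in both directions, with 7 of 11 tested rising and 3 falling under BMP, and 8 rising and 3 falling under BMP/FGF. Slc32a1, the vesicular GABA transporter that marks cells releasing GABA, had 0 counts in all EGF/FGF libraries, 1.87 ± 0.93 CPM in BMP (SD, n = 4) and 0.38 ± 0.09 in BMP/FGF. It is among the genes counted as rising, although a difference from EGF/FGF was built into its passing the filter. Abat, the enzyme that breaks GABA down, rose by 2.72 and 2.79 on the log2 scale. Slc38a1, which carries glutamine into cells, rose by 1.95 and 1.66, and Glul, which makes glutamine and is a marker of astrocytes, rose by 1.64 and 1.85. Gls2, a glutaminase, fell by 2.22 and 2.36. It is among the genes counted as falling, although it would not have passed the filter without its EGF/FGF libraries, which favoured a fall.

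Of 7 tested interneuron subtype markers, BMP raised 4 and lowered 3, and BMP/FGF raised 3 and lowered 4. Calb2 (calretinin, a marker of olfactory bulb granule and periglomerular interneurons) measured 0.12 ± 0.10 CPM under EGF/FGF, 6.48 ± 3.49 under BMP and 0.87 ± 0.28 under BMP/FGF. A difference from EGF/FGF was built into its passing the filter too. Reln, the secreted protein reelin, rose by 1.22 in BMP and 0.83 in BMP/FGF on the log2 scale, and Pvalb, a marker of cortical basket cells, fell by 1.71 and 1.01. Synpr rose by 0.70 in BMP and fell by 0.74 in BMP/FGF, the same pair of directions as Sp8. Vip and Sst had at most 1 count, and Th, the dopamine-synthesising enzyme of periglomerular cells, at most 14, in any library.

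Neuroblast and young neuron markers were mostly higher in quiescent cultures, 19 of 26 tested being higher in BMP with 3 lower (median log2 difference 0.97), and 16 being higher in BMP/FGF with 6 lower (median 0.70). Dcx, the microtubule protein of migrating neuroblasts, stood at 1.29 ± 0.64 CPM in EGF/FGF, 279.6 ± 125 in BMP and 49.9 ± 3.36 in BMP/FGF. Nrxn3, a presynaptic adhesion protein, stood at 0.45 ± 0.20, 25.1 ± 12.1 and 6.09 ± 0.82 CPM, Tubb3, the neuronal tubulin, at 11.8 ± 1.14, 164.6 ± 46.5 and 45.5 ± 4.52, and Syt1, a synaptic vesicle protein, at 0.05 ± 0.07, 3.27 ± 0.65 and 0.67 ± 0.05. Syt1, near 0 in EGF/FGF, and Nrxn3, low there, also passed the filter through their BMP and BMP/FGF libraries. The EGF/FGF libraries alone would not have passed either gene. Of the 26 tested, 14 had their mean highest in BMP and lowest in EGF/FGF, while 5 were highest in EGF/FGF and 3 in BMP/FGF. Stmn1 and Sox11, named here after their values were seen, were among those highest in EGF/FGF, with means of 424.7, 314.4 and 156.9 CPM and of 178.5, 144.4 and 77.7 CPM in EGF/FGF, BMP and BMP/FGF.

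Of 5 tested glutamatergic and dorsal forebrain genes, 1 was higher and 1 lower in BMP. Emx2, a dorsal patterning factor, had a log2 difference of 0.04 in BMP (adjusted p = 0.57) and rose by 0.33 in BMP/FGF. Tbr1, Neurod2 and Neurod6 had at most 3 counts in any library. All 12 cell cycle genes were lower in both quiescent conditions, with median log2 differences of -2.44 and -3.32.

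Markers of other cells also moved in both quiescent conditions. Stem cell markers were divided, with 6 of 11 higher and 5 lower in each. Gfap, the intermediate filament of astrocytes and quiescent NSCs, stood at 121 ± 28.7 CPM in EGF/FGF, 980.4 ± 96.5 in BMP and 1927 ± 53.3 in BMP/FGF, so its order differed from that of the Dlx genes. Of 7 astrocyte markers, 6 were higher under BMP and 7 under BMP/FGF, and of 7 tested oligodendrocyte lineage markers, 5 were higher and 2 lower under each. Ependymal markers had 4 of 5 tested higher in each, among them Cfap126, a gene of motile cilia, at 1.33 ± 0.43, 45.9 ± 5.67 and 24.9 ± 2.02 CPM. Microglia markers (3 tested) had 1 higher and 1 lower under BMP, then 2 and 1 under BMP/FGF, and endothelial and pericyte markers (4 tested) had 2 higher and 1 lower in each. The part of these cells in the levels of the 9 genes was not tested.

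**Figure D4:**
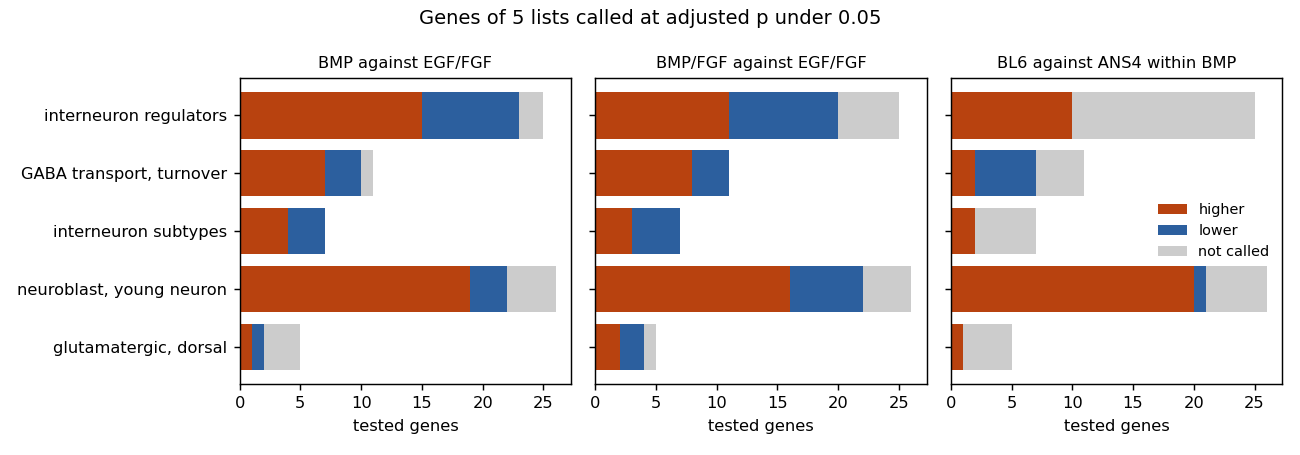
Number of tested genes (horizontal axis) of 5 gene lists that were higher, lower or not called at an adjusted p under 0.05, in BMP against EGF/FGF, BMP/FGF against EGF/FGF, and BL6 against ANS4 within BMP. Neuroblast markers have 19, 16 and 20 genes called higher out of 26, and interneuron regulators 15, 11 and 10 out of 25. Over all tested genes 40.8%, 40.9% and 12.3% were called higher.

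Likeness to the 8 tested genes was measured as Pearson's r of log2 CPM with their centred mean over the 12 libraries, among 12458 other tested genes averaging 1 CPM or more. The libraries share conditions and lines, so r is a description. The closest were Celsr3 (0.995), an atypical cadherin of axon guidance, Bcl11b (0.993), Tiam2 (0.993), a Rac exchange factor of neurons, Calb2 (0.990), Sox1 (0.990), a neural progenitor factor, Elavl4 (0.990), a neuronal RNA-binding protein, Zeb2 (0.989), a repressor in interneuron and glial lineages, and Tubb3 (0.989). They shared the order and not the size, since Sox1 had means of 102, 164 and 127 CPM in EGF/FGF, BMP and BMP/FGF and Celsr3 of 5.75, 32.1 and 11.9. Among the members, the r with the same mean, to which each tested one contributes, was 0.958 to 0.990 for Dlx1, Dlx2, Dlx5, Dlx6os1, Sp9 and Gad1, 0.848 for Dlx6, 0.584 for Sp8 and -0.08 for Gad2. Sp8 and Gad2 were thus the members least like that mean.

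Genes next to the loci were mostly unlike the members. On the far side of Dlx5, Sdhaf3 fell by 1.37 on the log2 scale in BMP, and beyond Dlx6os1, Sem1 fell by 0.36. Around Gad1, Dlx1 and Dlx2, Itga6 fell by 0.36, while Erich2, 12187 bases before Gad1, rose by 2.05 in BMP (adjusted p = 2.8e-05) and 1.98 in BMP/FGF. Erich2 showed no such gap between BMP and BMP/FGF as Gad1 did. Beside Sp9, Ola1 fell by 0.53 and Scrn3 by 0.30 in BMP, whereas Scrn3 rose by 0.38 in BMP/FGF (adjusted p = 0.00077). The tested neighbour of Gad2, Gpr158, had a log2 difference of -0.34 (adjusted p = 0.28), and the neighbours of Sp8, D230030E09Rik and Abcb5, were not tested.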

How the data were processed

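RNA-seq libraries (12, low-input protocol, BGISEQ-500RS) were analysed. According to the submitters' processing notes and the study's methods, the authors trimmed reads with Trim Galore 0.5.0, quantified them with kallisto 0.44.0 against mm10 transcripts and summarised them per gene. They deposited estimated counts stored as whole numbers, and a table of log2 values made with the regularised logarithm of DESeq2 1.27.32, which shrinks low counts. Kallisto divides reads between similar transcripts, so low values of overlapping genes are uncertain.

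Here the counts were filtered (filterByExpr by condition), scaled by TMM and fitted over all 12 libraries with edgeR 4.0.16 (glmQLFit, glmQLFTest, two-sided) in R 4.3.3, with condition and line as terms, or 6 line and condition groups for differences between lines. P-values were adjusted by Benjamini-Hochberg over 13312 genes, and an adjusted p under 0.05 was a call. CPM used TMM-scaled totals, and 1 count was 0.0517 to 0.0559 CPM. The permutation test for Dlx6 used log2 of CPM plus 0.1, and log2 CPM for likeness a prior count of 2. The code was tested on simulated data. Alternatives used DESeq2 1.42.0, limma 3.58.1 on the deposited log2 values, other scaling, no filter, other sets of libraries and a replicate block.

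The genes and lists were chosen with earlier results of these data known. From each list at most 4 genes with the largest log2 difference in BMP against EGF/FGF and a mean of at least 1 CPM were named, with Gsx1, Gsx2, Meis2, Pax6, Slc32a1, Dcx and Tubb3, the 8 genes most like the members and the nearest genes in the table. Some genes that this rule names are not reported here. Genes named for being at or near 0, and Sox2, were chosen after their values were seen. Astrocyte, oligodendrocyte lineage, microglia, endothelial and ependymal markers were also examined. Same-numbered replicates did not deviate together (correlation of their differences -0.07 to 0.05), and no libraries held identical values. Replicates differed by more than sampling noise, with a chi-square per degree of freedom of 12.4 in BL6 BMP and 2.14 to 4.76 in the other groups. The BL6 BMP pair enters the difference between lines in BMP, the interaction and the spread shared by all 12 libraries. No per-sample column was left out.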

Additional observations from a re-analysis of the deposited data

Results flagged for a closer look

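Within the 4 EGF/FGF libraries, 2 values stood apart by Dixon's criterion: Dlx5 in BL6 replicate 2 (0.0517 CPM, 1 count, against 0 in the other 3) and Gad1 in BL6 replicate 2 (2.27 CPM, against 2.79 to 2.85). For 4 values from a single normal distribution, chance alone sets apart about 1 in 20 groups. That rate does not apply directly here, since each group holds 2 lines. A lone count against 0 in the other 3 libraries, as for Dlx5, is always set apart. The rise from EGF/FGF to BMP differed between the lines by an interaction term for Dlx1 (0.61 on the log2 scale, BL6 minus ANS4), Dlx2 (0.83), Sp9 (1.11) and Gad1 (1.72), each with the larger rise in BL6. With 1 line per strain, strain and line cannot be told apart.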

How the results depend on the processing

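Of 186 alternative values of the counts of genes called and of the median, 183 stayed within 1.5 times, or within the spread, of the reported value. The exceptions concern the genes called between the lines in BMP/FGF, 0 as reported, and came from fits in which more of all tested genes were called. That count became 2 (Dlx1 and Dlx2) with only the libraries compared, and ran from 0 to 2 when each library was left out in turn. Of 1133 alternative values for single genes, 1089 kept their direction and side of the threshold or, where no test was made, stayed within 1 SD. Of the rest, 12 lost a call, 7 gained one, 7 moved further without changing direction and 18 changed direction or became 0, of which 17 were called neither as reported nor in the alternative. The called one was the Dlx5 interaction between lines, -0.92 and not called as reported, which was 1.18 by limma on the deposited log2 values (adjusted p = 0.012), where Dlx6os1 was also called (1.31, adjusted p = 0.0035). By limma the Gad2 difference between lines in BMP/FGF was 0.19 (reported -0.17), and scaled by library size only the Gad2 interaction was 0.015 (reported -0.02). The other changes of direction came from leaving out a library. The difference between lines in EGF/FGF then ran from -0.10 to 0.024 for Dlx2, from 0 to 3.13 for Dlx5, from -3.66 to 4.05 for Dlx6os1 and from -0.20 to 0.52 for Sp9. In BMP/FGF it ran from -0.36 to 0.64 for Dlx5 and from -0.092 to 0.045 for Sp9. The interaction ran from -1.76 to 1.36 for Dlx5, from -2.60 to 5.11 for Dlx6os1 and from -0.14 to 0.10 for Gad2. The cause was not tested. The Sp9 interaction was also lost without a filter (adjusted p = 0.056) and with only the libraries compared (0.069). With the replicate number as a block, 8 genes were called in BMP and 8 in BMP/FGF against EGF/FGF, and the block changed no call. Of all 13312 tested genes, 10536 and 10464 were called with the block. Without the filter Dlx6 was higher in BMP by 3.63 (adjusted p = 0.00019). Depth limits Dlx6, and Dlx5 and Dlx6os1 in EGF/FGF.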
